A study of Mus musculus with 2 samples.

Results

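The genes described here are the cell cycle and replication origin genes of the mouse, chosen by symbol: the Mcm, Orc and Gins genes of the replication machinery, the Cdc genes, the A, B, D and E cyclins, the Cdk and Cdkn genes and the E2f genes. The rule took 108 of the 21938 protein-coding genes of the GENCODE M21 basic annotation on the assembled chromosomes. A gene was called bound when the summit of a YY1 ChIP-seq peak lay within 1000 bp of one of its transcript starts, and 35 of the 108 were bound. The symbol rule also picked up genes known mainly for other work, such as the transcriptional kinase Cdk9 or the effectors of the GTPase CDC42, so each member was also sorted by hand by its main known role. By role, 65 members were placed in the cell cycle or in DNA replication and 43 elsewhere. The line between them is not sharp, since Cdk2ap1, Cdk5rap2 and Cdkn2aip, placed elsewhere, also have links to the cycle.

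The study followed the transcription factor YY1 in muscle stem cells (MuSCs) of the mdx mouse, a model of Duchenne muscular dystrophy that lacks dystrophin on a C57BL/10 ScSn background. The ChIP-seq data come from 1 YY1 library of sorted MuSCs pooled from several Ctrl mdx mice (Pax7 CreERT2/R26YFP, Yy1+/+, mdx), and peaks were called against 1 background library, which the labels name input and the Methods name IgG. Cre and the YFP reporter in these animals mark Pax7-expressing cells after tamoxifen. The paper describes tamoxifen for Ctrl mice as well as for mice with Yy1 deleted, and does not restate it for the ChIP pool. In the Ctrl mice Yy1 itself is intact, and no library without YY1 was analysed here. The labels describe cultured cells of wild-type mice while the Methods describe freshly isolated cells of mdx mice, and the ages of the mice were not given in the sources used here. ChIP-seq measures DNA and not RNA, so the identity of the cells could not be checked against marker expression. With 1 library there is no spread between mice, no test between groups was possible, and the intervals below cover counting error only.

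Before a cell can copy its DNA, the origin recognition complex sits on replication origins and CDC6 and CDT1 load the MCM helicase there, a step called licensing. Kinases built from cyclins and CDKs, together with CDC7, then fire the origins by recruiting CDC45 and the GINS complex, while the E2F factors switch on many of the genes involved when a resting cell re-enters the cycle. In healthy muscle MuSCs are mostly quiescent, and they enter the cycle when the muscle is injured. YY1 is a zinc finger protein that binds many promoters close to the start of transcription, at sites with a core of ATGGC, and can act as an activator or as a repressor.

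The peak list held 4681 peaks, 3777 of them with a summit within 1000 bp of a start of a protein-coding gene. The fold enrichment of a peak relates the DNA fragments stacked at its summit to the number the caller expected there, with 1 added to each. It ranged from 1.49 to 14.4 over all peaks, with 8 to 394 fragments at the summit. The most frequent local background, 1.54 fragments, corresponds to a depth of about 13400000 fragments, so most single peaks rest on few fragments and differences between them are hard to resolve.

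YY1 peaks were found at the promoters of 32.4% of the members (35 of 108, exact 95% binomial interval 23.7 to 42.1%), against 18.8% of all protein-coding genes (4119 of 21938). When each summit counted only for the gene with the nearest start, 32 members (29.6%) and 15.7% of all genes were bound. Keeping only peaks that reached a 5-fold enrichment left 22 members (20.4%) and 11.1% of all genes. The members differ from the average gene in the base composition of their promoters: 85 of the 108 (78.7%) have a CpG-rich start, here a CpG ratio of at least 0.6 and a GC content of at least 50% within 500 bp of the gene's outer edge, against 44.4% of all protein-coding genes. Among genes with such a start, 36.5% of the members (31 of 85, interval 26.3 to 47.6%) and 36.4% of all genes (3548 of 9738) were bound. The share of bound members was thus at the background of CpG-rich genes, and the excess over all genes was not seen there. Of the 23 members without a CpG-rich start, 4 were bound (Gins1, Cdk14, Cdk2ap1 and Mcm7), against 4.68% of the 12200 genes of that kind. Both shares rest on the score at the outer edge. At the start that was bound, Cdk14, Cdk2ap1 and Mcm7 were CpG-rich (ratios 0.962, 1.15 and 0.841). Gins1 was not (ratio 0.722, GC content 47.7%).

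Members with a role in the cell cycle or replication were bound in 16 of 65 cases (24.6%, interval 14.8 to 36.9%), and members placed in other roles in 19 of 43 (44.2%, interval 29.1 to 60.1%). The intervals overlap, and the split depends on how genes were sorted, which was done with earlier results of these data known. Restricted to CpG-rich starts, the shares were 14 of 51 (27.5%, interval 15.9 to 41.7%) and 17 of 34 (interval 32.4 to 67.6%), and the background of 36.4% lies inside both intervals. The 19 role groups hold 11 members at most, the interval of each includes both 18.8% and 36.4%, and 15 of them had a bound gene.

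**Figure D1:**
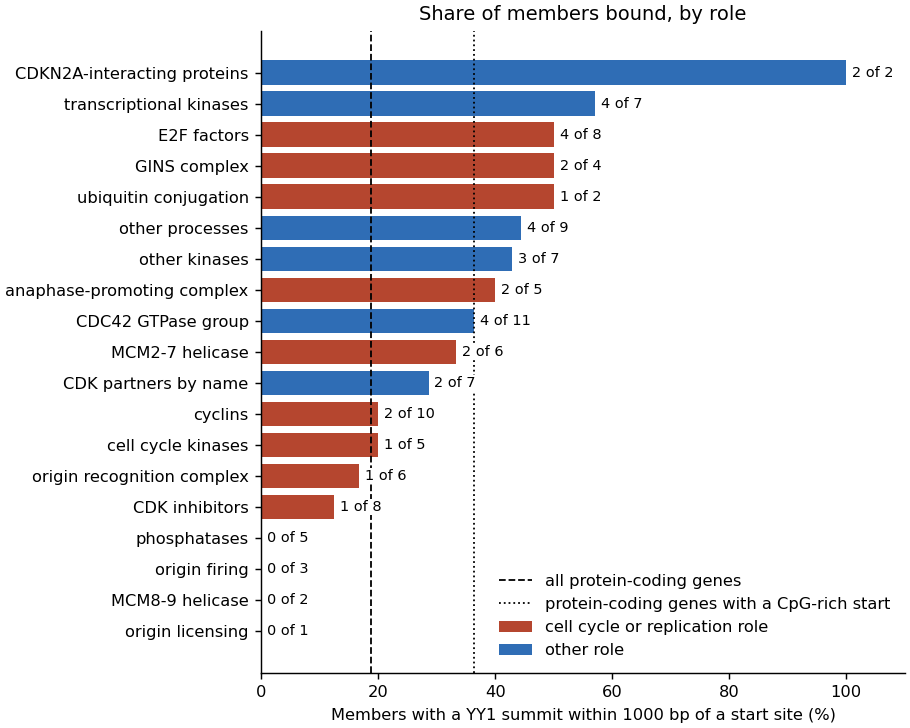
Percent of members (x axis) with a YY1 summit within 1000 bp of a start site in each role group (y axis), with counts beside the bars; the dashed and dotted lines mark all protein-coding genes (18.8%) and those with a CpG-rich start (36.4%). The phosphatases, the origin firing factors, the MCM8-9 helicase and Cdc6 had no bound member, and the groups are too small for their shares to be ordered.

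Some sequences show what did and did not lie under these peaks. The best-known YY1 word, AANATGGC, was searched on both strands, as were the E2F words TTTCCCGC and TTTGGCGC, the CCAAT box and the CHR word TTTGAA. All sequences are from the RefSeq reference GRCm38, 5′ to 3′ on the strand of the gene, with the words in capitals, and the longer ones hold no annotated exon. The Cdk5rap2 promoter is shown because it had the most copies of the YY1 word of any member (chr4:70410444-70410685, minus strand, upstream of the first exon), with a further copy in the first exon (chr4:70410410-70410439).
Cdk5rap2 promoter: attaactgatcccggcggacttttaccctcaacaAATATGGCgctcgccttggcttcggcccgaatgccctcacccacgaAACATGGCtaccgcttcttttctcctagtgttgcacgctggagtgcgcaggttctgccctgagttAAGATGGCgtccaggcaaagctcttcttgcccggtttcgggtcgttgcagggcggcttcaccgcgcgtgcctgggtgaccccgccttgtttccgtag
Cdk5rap2 first exon site: aagcgccgggaAAGATGGCggcggctgcgg

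The next sequences are E2F words under the peaks of the replication genes Orc3 (chr4:34614965-34614994, minus strand) and Mcm3 (chr1:20820275-20820304 and chr1:20820263-20820292, minus strand, overlapping). Gins1, which had such words as well, was not among the promoters matched in RefSeq and is not shown.
Orc3 E2F site: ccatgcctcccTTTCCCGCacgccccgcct
Mcm3 E2F site, first: aaacttccgtgGCGGGAAAacttgggaagt
Mcm3 E2F site, second: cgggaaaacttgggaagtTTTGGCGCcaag

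Of the 36 promoter peaks of members, 25 (69.4%, interval 51.9 to 83.7%, against 73.1% of all promoter peaks) had none of these words within 100 bp of the summit, and 19 had none over their whole width. The next sequences are GC-rich examples without any. They are exon-free stretches at the summits of Cdk4 (chr10:127063420-127063533, plus strand), a kinase of the D cyclins, Ccne1 (chr7:38107535-38107629, minus strand), cyclin E1, and Cdc42se2 (chr11:54787676-54787751, minus strand), a regulator of CDC42 with the third highest fold enrichment. The Cdc42se2 stretch ends at the summit and shows only its upstream side, since the first exon lies on the other.
Cdk4 summit: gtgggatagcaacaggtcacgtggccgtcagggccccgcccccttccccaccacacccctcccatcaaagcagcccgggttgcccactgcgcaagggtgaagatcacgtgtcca
Ccne1 summit: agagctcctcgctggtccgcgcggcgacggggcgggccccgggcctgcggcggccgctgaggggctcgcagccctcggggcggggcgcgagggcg
Cdc42se2 upstream of the summit: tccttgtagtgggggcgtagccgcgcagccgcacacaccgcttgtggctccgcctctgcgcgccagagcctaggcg

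The origin recognition complex, which marks the places where replication can start, had 1 bound gene among 6. Orc3 lay under a peak at chr4:34614778-34615025 whose summit was 25 bp downstream of a start, in a coding exon. It had 16 fragments (exact 95% Poisson interval 9.15 to 26.0) over a background of 2.34, a fold enrichment of 5.10 and a q-value of 5.68e-06. The promoter is shared: the start of Rars2, a mitochondrial arginyl-tRNA synthetase gene read from the other strand, is 44 bp from that of Orc3 and 69 bp from the summit, so the peak cannot be given to either gene. Orc1, Orc2, Orc4, Orc5 and Orc6 had no promoter peak. Neither did Cdc6, the loading factor.

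Of the 6 genes of the MCM helicase that unwinds origins, Mcm3 and Mcm7 were bound. Mcm7 had 15 fragments (8.40 to 24.7) over 1.54, a fold enrichment of 6.31 and a q-value of 1.94e-07 (chr5:138171038-138171580). By the GENCODE basic annotation its summit lay in an intron, 594 bp downstream of the nearest start and 1198 bp inside the outer edge of the gene. RefSeq has a further Mcm7 start 42 bp from the summit, and transcripts outside the basic set have an exon there. Ap4m1, an adaptor protein gene on the other strand, starts 184 bp from the nearest basic start. Mcm3 had one of the weakest peaks of the set, with 9 fragments (4.12 to 17.1) over 1.54, a fold enrichment of 3.94 and a q-value of 0.012, in an untranslated exon 81 bp downstream of the start (chr1:20820055-20820383). Mcm2, Mcm4, Mcm5 and Mcm6 had none, nor had Mcm8 and Mcm9, a helicase of DNA repair. Peaks thus covered part of the complex, and a site too weak for the caller's p-value limit of 0.0001 would be missed.

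Among the factors that fire origins, Cdc45, Cdc7 and Mcm10 had no promoter peak, whereas 2 of the 4 GINS genes did. Gins1 had 18 fragments (10.7 to 28.4) over 1.70, a fold enrichment of 7.04 and a q-value of 1.43e-09, with the summit 21 bp downstream of a start (chr2:150909414-150909749). A second, separate peak 4855 bp upstream of that start lay in the promoter of Abhd12, with a fold enrichment of 4.80. Gins4 had 12 fragments (6.20 to 21) over 1.98, a fold enrichment of 4.37 and a q-value of 0.000732, 102 bp downstream of its start (chr8:23237389-23237603). Gins2 and Gins3 were not bound. In all, 5 of the 22 origin and fork genes named Orc, Cdc6, Cdc7, Cdc45, Mcm2 to Mcm10 and Gins were bound (22.7%, interval 7.82 to 45.4%), and the interval holds both the 18.8% of all protein-coding genes and the 36.4% of those with a CpG-rich start.

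The E2F factors had 4 bound genes among 8, and both activators and repressors were among them. E2f8, an atypical repressor of the S phase programme, had 15 fragments (8.40 to 24.7) over 1.54, a fold enrichment of 6.31 and a q-value of 1.94e-07 (chr7:48880943-48881448). Its summit lay in an intron 350 bp inside the gene, 205 bp upstream of an internal start, and the noncoding gene Gm2788 started closer, at 54 bp. E2f3, an activator, had 13 fragments (6.92 to 22.2) over 1.54, a fold enrichment of 5.52 and a q-value of 1.07e-05 at an internal start (chr13:29984457-29984969), 436 bp upstream of that start and 1236 bp inside the outer edge of the gene. The starts nearest to these summits within each gene were those of shorter transcripts.

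E2f5, a repressor that works with the pocket proteins, had 11 fragments (5.49 to 19.7) over 1.54, a fold enrichment of 4.73 and a q-value of 0.00043, 49 bp downstream of a start (chr3:14578616-14578843). E2f1, the first described activator, had 11 fragments (5.49 to 19.7) over 1.98, a fold enrichment of 4.03 and a q-value of 0.0034, 269 bp downstream of a start (chr2:154569254-154569885). The intervals of all 4 overlap. E2f2, E2f4, E2f6 and E2f7 had no promoter peak.

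The cyclins and the kinases that drive the cycle were each bound in 20.0% of cases, near the 18.8% of all protein-coding genes. Of 10 cyclins, Ccna2, the A cyclin of S phase and mitosis, and Ccne1 were bound, with fold enrichments of 5.44 and 5.38, 16 and 15 fragments, and summits 20 bp upstream of the start in both. Ccnb1, Ccnb2, Ccnb3, Ccna1, Ccne2 and the 3 D cyclins were not. Of the kinases that drive the cycle, Cdk4 had a peak 39 bp upstream of its start, with 16 fragments over a high background of 3.40 and a fold enrichment of 3.87, and Cdk1, Cdk2, Cdk6 and Cdk7 had none. Among 8 CDK inhibitors, Cdkn2d, which codes for p19INK4d, was bound with a fold enrichment of 5.38 from 15 fragments. Cdkn1a, Cdkn1b, Cdkn1c, Cdkn2a, Cdkn2b, Cdkn2c and Cdkn3 were not.

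Genes of mitotic exit and of ubiquitin conjugation were bound in part, and those of the cell cycle phosphatases were not bound. The anaphase-promoting complex marks cyclins and securin for destruction in mitosis, and its subunit genes Cdc16 and Cdc26 had peaks while Cdc20, Cdc23 and Cdc27 did not. Cdc16 had the second highest fold enrichment of all members, 7.49, from 18 fragments (10.7 to 28.4) over 1.54 with a q-value of 2.93e-10, 95 bp downstream of the start (chr8:13757667-13757895). Cdc26 had a fold enrichment of 5.50 from 15 fragments, 68 bp upstream of its start and 87 bp from that of the splicing gene Prpf4 on the other strand. Cdc34, a ubiquitin-conjugating enzyme that acts on CDK inhibitors, had 27 fragments over a background of 3.95 and a fold enrichment of 5.66, and its relative Cdc34b had no peak. The 5 phosphatase genes Cdc25a, Cdc25b, Cdc25c, Cdc14a and Cdc14b were all without a promoter peak.

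The highest fold enrichment of all members belonged to a gene outside the core machinery. Cdkn2aip codes for a nuclear protein that binds the tumour suppressor ARF, and its peak at chr8:47713609-47714409 had 29 fragments (19.4 to 41.6) over 1.91, a fold enrichment of 10.3 (7.01 to 14.6) and a q-value of 3.24e-20. The summit was 153 bp upstream of the start and 819 bp downstream of that of the antisense gene E030037K01Rik. Its fold enrichment exceeded that of 99.4% of the bound protein-coding genes. The related gene Cdkn2aipnl was bound as well, with a fold enrichment of 5.92 from 14 fragments.

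Among the kinases of transcription, Cdk8, Cdk9, Cdk11b and Cdk13 were bound and Cdk10, Cdk12 and Cdk19 were not. Cdk13, which phosphorylates RNA polymerase II, was the only member with more than 1 promoter peak. The stronger had 20 fragments (12.2 to 30.9) over 1.98, a fold enrichment of 7.06 and a q-value of 2.25e-10, spread over 1147 bp with its summit 128 bp downstream of the start, and the other a fold enrichment of 6.31, 744 bp downstream. At Cdk9, the kinase that releases paused polymerase, the summit (fold enrichment 5.38, 15 fragments) was 201 bp from the nearest basic start, 91 bp from the outer edge of the gene and 13 bp from the start of the microRNA gene Mir3960. Cdk8 of the Mediator kinase module had a fold enrichment of 5.12. Cdk11b had the weakest peak of all members, with a fold enrichment of 2.86 from 14 fragments over 4.25 and a q-value of 0.0532.

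The remaining kinases with a peak were Cdk5 (fold enrichment 6.08), a kinase of neurons and postmitotic cells, Cdk14 (4.34, at an internal start) and Cdk17 (4.25), and those without were Cdk15, Cdk16, Cdk18 and Cdk20. Among the proteins named for a CDK, Cdk2ap1 had 16 fragments (9.15 to 26.0) over 1.54, a fold enrichment of 6.70 and a q-value of 2.44e-08 in an intron, at the widest peak of the set (1335 bp), 596 bp downstream of an internal start and 9007 bp inside the outer edge of the gene. Cdk5rap2, a centrosome protein needed for normal brain size, had 18 fragments (10.7 to 28.4) over 1.98, a fold enrichment of 6.39 and a q-value of 1.41e-08. Cdk2ap2, Cdk5r1, Cdk5r2, Cdk5rap1 and Cdk5rap3 were not bound.

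Of the CDC42 group, which controls actin and cell shape, Cdc42se2, Cdc42ep1, Cdc42bpb and Cdc42se1 were bound. Cdc42se2 had 20 fragments (12.2 to 30.9) over 1.91, a fold enrichment of 7.21 and a q-value of 1.26e-10, with the summit 1 bp from the start. Cdc42ep1 had 16 fragments (9.15 to 26.0) over 1.54, a fold enrichment of 6.70 and a q-value of 2.44e-08, 40 bp downstream of the start. Cdc42bpb (4.29) and Cdc42se1 (3.53) were lower, and the start of Cdc42se1 lies 55 bp from that of Mllt11. Cdc42 itself, Cdc42bpa, Cdc42bpg and Cdc42ep2 to Cdc42ep5 had no promoter peak.

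Of the members with other work, the splicing factors Cdc5l (fold enrichment 6.05) and Cdc40 (3.90), the HSP90 partner Cdc37 (4.89) and the polymerase-associated Cdc73 (4.44) were bound. The Cdc40 summit was 368 bp from its own start but 148 bp from that of Wasf1, an actin regulator on the other strand. Ccnb1ip1, Cdc123, Cdc20b, Cdc37l1 and Mcm3ap had no promoter peak.

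Set side by side, few of these peaks could be told apart. Of the 595 pairs of bound members, the fold enrichment intervals did not overlap in 8, and each of the 8 was Cdkn2aip against a weaker member: Cdc73, Cdc42bpb, Cdk17, E2f1, Cdc40, Cdk4, Cdc42se1 and Cdk11b. The other 26 bound members overlapped Cdkn2aip as well. Apart from these 8 pairs, the order of the members in the plot of fold enrichment is not resolved.

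**Figure D2:**
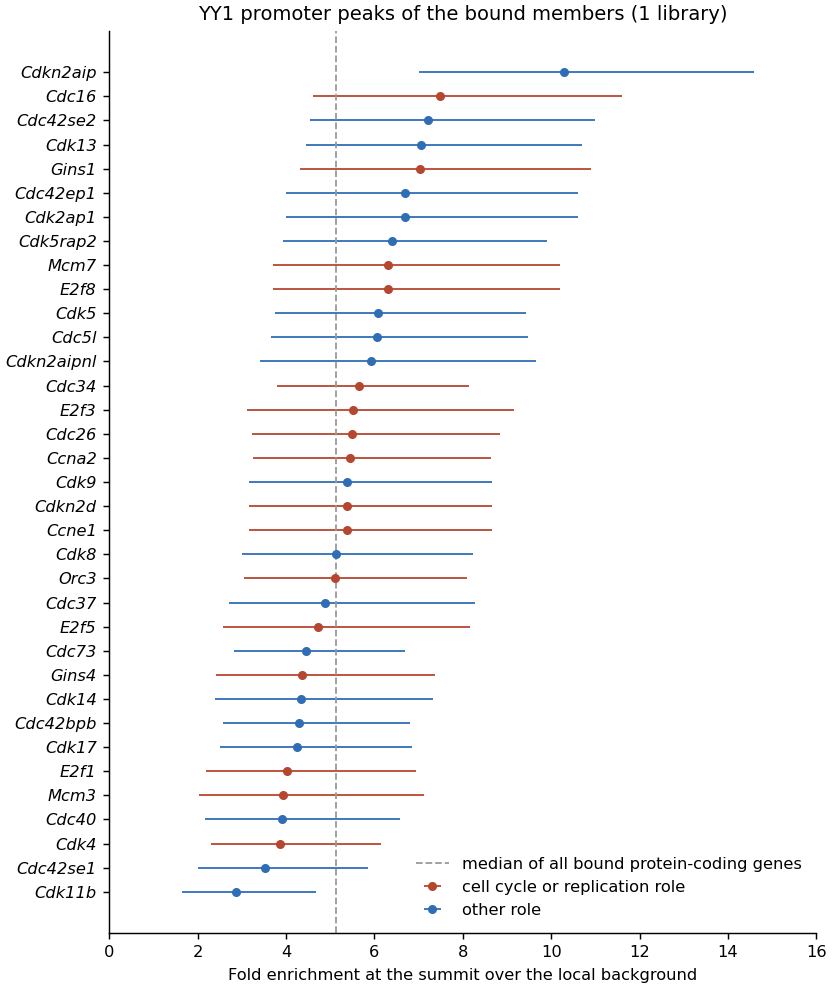
Fold enrichment over the local background (x axis) at the strongest promoter peak of each of the 35 bound members (y axis), with bars for the exact 95% Poisson interval of the fragment number and a dashed line at the median of all bound protein-coding genes (5.13). Cdkn2aip at 10.3 stands highest, and its bar clears those of 8 members.

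As a group, the bound members resembled other bound genes. Their median fold enrichment was 5.38 (order-statistic interval 4.73 to 6.05, range 2.86 to 10.3), beside 5.13 for the 4119 bound protein-coding genes, and the median number of fragments was 15 in both. The median peak width was 357 bp against 368 bp. Members with a cell cycle or replication role and members with other roles had medians of 5.41 and 5.38. Of the 35 peaks, 33 had a q-value under 0.01 and 34 under 0.05.

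**Figure D3:**
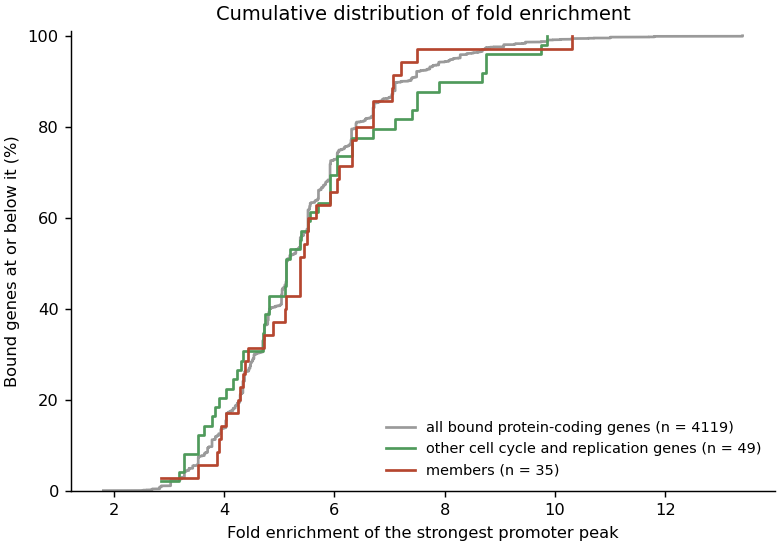
Percent of bound genes (y axis) at or below a given fold enrichment of the strongest promoter peak (x axis) for the 35 members, the 49 bound genes of a list of other cell cycle, cyclin and replication genes, and all 4119 bound protein-coding genes. The 3 curves run close together, with medians of 5.38, 5.13 and 5.13.

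The peaks sat at the start sites. The median distance between summit and start was 95 bp, against 107 bp for all bound genes, and 18 of the 35 (51.4%, against 47.9%) lay within 100 bp. Summits were upstream of the start in 18 members and downstream in 17. By annotation, 16 summits lay outside the basic transcripts of the gene, 14 in an untranslated exon, 4 in an intron (Cdk2ap1, E2f3, E2f8 and Mcm7) and 1 in a coding exon (Orc3). The members farthest from a basic start were Cdk2ap1, Mcm7 and E2f3, at 596, 594 and 436 bp, and from a RefSeq start they were 553, 42 and 436 bp away.

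**Figure D4:**
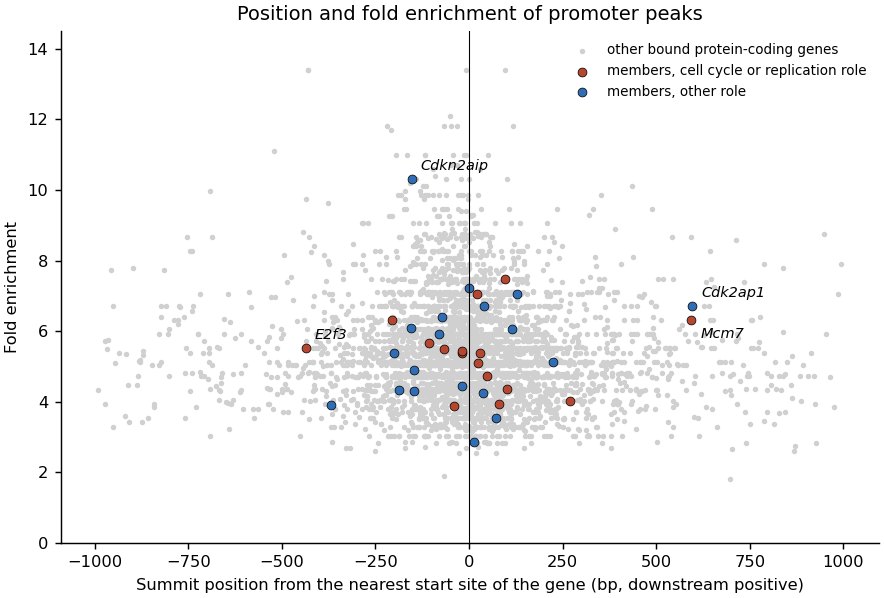
Fold enrichment (y axis) against the position of the summit from the nearest start site of the gene in bp (x axis, downstream positive) for the 35 members (red, cell cycle or replication role; blue, other role) and all other bound protein-coding genes (grey). Members lie within the grey cloud, most of them near 0, and Cdkn2aip, Cdk2ap1, Mcm7 and E2f3 are named.

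Several of these promoters serve more than 1 gene. The summit lay within 1000 bp of the start of another protein-coding gene for 5 members (14.3%, against 25.7% of bound genes): Orc3 with Rars2, Mcm7 with Ap4m1, Cdc26 with Prpf4, Cdc40 with Wasf1 and Cdc42se1 with Mllt11. The partner was read from the other strand in all 5. For 32 of the 35 (91.4%, against 82.9%) the member's own start was the nearest of any gene, the exceptions being E2f8, Cdk9 and Cdc40.

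The YY1 word was rare at these summits. AANATGGC lay within 100 bp of the summit in 2 of the 36 member promoter peaks (5.56%, interval 0.68 to 18.7%), those of Cdk5rap2 and Cdk17, against 7.55% of the 3777 promoter peaks of protein-coding genes. Among the 16 peaks of genes with a cell cycle or replication role none had it, with an interval of 0.0 to 20.6% that holds the share of all promoter peaks. The core ATGGC was found at 9 of 36 (25.0%, interval 12.1 to 42.2%), against 30.6%, and the intervals of both member shares hold the share of all promoter peaks. Over the whole width of the peak, Cdkn2aip, Cdk2ap1 and Cdc73 each had 1 copy of AANATGGC as well.

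Cdk5rap2 stood out by its copies of the word, a feature singled out after its values were seen. The peak (chr4:70410416-70410656) spans all 4 copies in the sequences printed above, all on the strand of the gene, and its summit lay 71 bp upstream of the annotated start. The 3 copies within 100 bp of the summit made it the only such peak among 3777 (0.0265%) with 3 or more. Among the 32841 RefSeq promoters, read from 250 bases before to 50 after a start, it was the only one with 4 or more. The copies were spaced 46, 65 and 112 bp apart, and the fold enrichment of 6.39 was higher than that of 79.7% of the bound protein-coding genes.

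**Figure D5:**
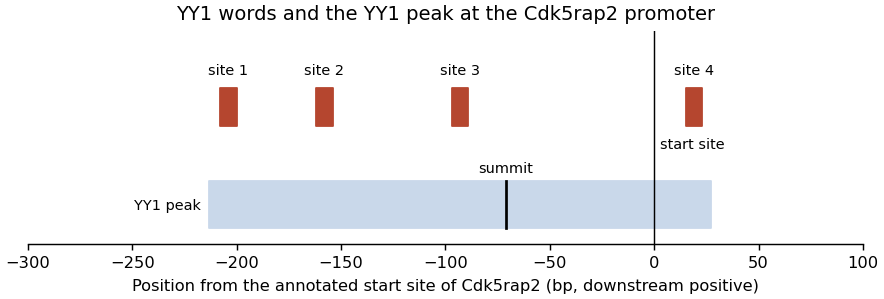
Map of the Cdk5rap2 promoter in bp from the annotated start site (x axis, downstream positive), with the 4 copies of the YY1 word as red boxes and the YY1 peak in blue with its summit. All 4 copies fall inside the peak, which runs from 213 bp upstream to 27 bp downstream of the start.

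Words of other factors were searched in the same windows. An E2F word lay within 100 bp of the summit in 4 of 36 member peaks (11.1%, interval 3.11 to 26.1%), against 2.12% of all promoter peaks (interval 1.68 to 2.63%), and the 4 genes were Mcm3, Gins1, Orc3 and E2f8. The nearest word was 40, 22, 92 and 38 bp from the summit, in that order. CCAAT was found at 6 of 36 (16.7%, against 16.5%), namely Gins1, Mcm7, E2f8, Cdk9, Cdc37 and Cdkn2aipnl. TTTGAA was found at 1, Cdc5l (2.78%, against 3.39%).

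Over whole promoters, E2F words were found at like shares in members with and without a peak. The RefSeq promoter table held 89 of the 108 members and 29 of the 35 bound, with more than 1 promoter for some. An E2F word was found in 12.5% of the 32 promoters of bound members and 13.2% of the 76 promoters of members without a peak, against 1.57% of all 32841 promoters. CCAAT was found in 34.4% and 55.3%, against 37.4% of all, TTTGAA in 12.5% and 25.0%, against 17.9%, TATAAA in 6.25% and 3.95%, against 13.6%, and AANATGGC in 3.12% and 5.26%, against 6.05%. The exact intervals of bound and unbound members overlap for each of the 5. Among bound members, the E2F words of Mcm7 and E2f3 lay outside the peak, and those of Orc3 and Mcm3 lay inside it. Ccna2, Cdk5, Cdk17, E2f5, Gins1 and Gins4 were not among the promoters matched.

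The 73 members without a promoter peak were mostly far from any. The median distance to the nearest summit was 78.9 kb, and 33 were more than 100 kb away, up to 3000 kb for Cdk16. Only 3 had a summit within 5000 bp. Cdkn1a, the p21 gene, just missed the limit: a weak peak inside the gene had its summit 1020 bp downstream of a start (chr17:29094630-29095026), with 13 fragments (6.92 to 22.2) over 3.95, a fold enrichment of 2.83 and a q-value of 0.0763. Inside the limit, the farthest bound members were Cdk2ap1 and Mcm7, at 596 and 594 bp from a basic start.

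Cdk6 and Ccnd1, which form a kinase of early G1, had peaks nearby but outside the promoter window. The Cdk6 summit was inside the gene, 1193 bp upstream of the nearest start (chr5:3342548-3342762), with 12 fragments (6.20 to 21), a fold enrichment of 4.16 and a q-value of 0.00146. The Ccnd1 summit was 3536 bp upstream of the gene (chr7:144943373-144943587), with 10 fragments (4.80 to 18.4), a fold enrichment of 4.34 and a q-value of 0.00236. Of the bound members, Cdk8 had a further peak in its body, 29867 bp downstream of a start, with 237 fragments but over a background of 85.9, which gave a fold enrichment of only 2.74. Cdk14 and Cdc42ep1 also had a second peak inside the gene, with fold enrichments of 3.28 and 4.73.

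A list of 121 symbols, of which 120 were found, held other genes of these pathways and further cyclins. Of these 120, 49 were bound (40.8%, interval 32.0 to 50.2%), and 40 when only the nearest start counted. Of the 103 with a CpG-rich start, 45 were bound (43.7%, interval 33.9 to 53.8%), an interval that holds the 36.4% of all such genes. The share of all protein-coding genes was 18.8%. Among other licensing and firing factors 7 of 10 were bound (interval 34.8 to 93.3%), or 5 of 10 by the nearest start: Cdt1, the partner of CDC6, Dbf4, the activator of CDC7, and Mcmbp, Mtbp, Recql4, Ticrr and Wdhd1. Of the checkpoint and CDK control genes 11 of 18 were bound (35.7 to 82.7%), or 8 by the nearest start, and of the other cyclins 7 of 15 (21.3 to 73.4%), or 6. The bound cyclins included Ccnk, Ccnl1 and Ccnt2, partners of kinases of transcription, so 40.8% is not a share of cell cycle genes alone. Of the RB, DREAM and E2F partners 5 of 12 were bound (15.2 to 72.3%), among them Rb1, Tfdp1 and Foxm1, and 4 by the nearest start. The APC/C and mitosis genes had 11 of 31 (19.2 to 54.6%), or 10, the nucleotide supply genes 2 of 6 (4.33 to 77.7%), or 1, and the replication fork genes 6 of 28 (8.3 to 41.0%) by either count. The intervals of the 7 groups overlap, and each includes the 36.4% of genes with a CpG-rich start. The 5 with the highest fold enrichment were Pole3, a histone-fold subunit of DNA polymerase epsilon (9.86, 34 fragments), Rad17, which loads the checkpoint clamp (9.75, 28 fragments), Birc5, or survivin (8.74, 25 fragments), Wdhd1, which couples helicase and polymerase (8.74, 25 fragments), and the ubiquitin ligase scaffold Cul4a (8.68, 21 fragments).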

How the data were processed

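Reads had been trimmed, filtered and aligned to mm10 (the sequence of GRCm38) by the authors with Bowtie2. Duplicates were dropped, and MACS2 called the peaks with a p-value limit of 0.0001. Versions were not given in the sources used here. The deposited list holds, for each peak, a fold enrichment (a ratio over the local background) and −log10 of the p-value and q-value, all computed by the authors' peak caller on 1 YY1 library and 1 background library, which was not analysed on its own. A deeper library would pass weaker sites.

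The fragments under each summit, with the background expected there, were recovered from fold enrichment and p-value for 100% of the peaks (tolerance 0.001 on −log10 p). Summits were placed against GENCODE M21 basic starts. Shares have exact 95% binomial (Clopper-Pearson) intervals and fragments exact Poisson ones. The members, gene lists, roles and words were chosen with earlier results of these data known. Every bound member is named. Full values are given for the 10 with the highest fold enrichment and the bound replication and E2f genes. Distances are given for unbound members with a summit within 5000 bp. Sequences were chosen for the words they hold or lack, after these were seen.

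Peak placement, motif search and fragment recovery were tested on simulated data. Alternatives were stricter q-values and fold enrichments, other promoter windows, outermost or nearest starts, members by role or CpG content, and other motif forms and windows. The analysis ran in Python 3.11.15 (scipy 1.17.1, numpy 2.4.6, pandas 2.3.3, pysam 0.24.0) with samtools 1.23.1, and figures were drawn with matplotlib 3.10.9.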

Additional observations from a re-analysis of the deposited data

How the results depend on the processing

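A limit of 5 on fold enrichment lowered the bound members to 22 (20.4%) and raised their median fold enrichment to 6.07. It lowered the share of the other cell cycle, cyclin and replication genes bound to 23.3%. Counting members with a cell cycle or replication role alone gave 16 bound and a share of peaks with AANATGGC of 0.0%, while ATGGC in its place gave 25.0%. All other alternatives moved values by less than their intervals or, for counts, by less than 1.5 times, with 29 to 37 members bound. With outermost starts only, 31 members were bound, and Mcm7, E2f3, Cdk2ap1 and Cdk14 were not among them. Gins1 was then counted only through another peak, 661 bp from the outer edge of the gene and also in the promoter of Abhd12. Counting each summit for its nearest start and restricting members to CpG-rich starts were chosen after seeing the data. With about 13400000 fragments and often 15 at a summit, single peaks have wide intervals, and a gene without a peak was not detected rather than shown to be unbound. No paired analysis was possible because the series holds a single YY1 library, so no replicate could be left out either.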
